A study of Rattus norvegicus with 12 samples.

Results

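The genes described here are regulators of cholesterol sensing and cholesterol export in rat urinary bladder. The rule took 7 genes: Srebf1, Srebf2, Scap, Insig1 and Insig2 of the SREBP system, and Nr1h3 and Abca1 of the liver X receptor (LXR) arm. A probe counted as measuring a gene where its RefSeq accession was assigned to that gene. On this basis 6 of the 7 had a probe, with 1 probe of 2 spots each, among the 20425 features tested on the arrays. Srebf1 was not analysed here, because no probe was assigned to it by accession. All 6 probes were well above background on 12 of 12 arrays.

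Cells sense cholesterol in the membrane of the endoplasmic reticulum. When sterols are low, SCAP escorts SREBP precursors to the Golgi, where proteases release the active factor, which turns on genes of sterol synthesis and uptake. When sterols are high, INSIG proteins hold SCAP in the endoplasmic reticulum, while oxysterols activate LXR, which turns on export pumps such as ABCA1. In urothelium, cholesterol is a main lipid of the apical plaques, and tissue macrophages are known for high LXR and ABCA1 activity.

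The study asked how age and food restriction change the rat bladder. Total RNA from the bladder body of 12 male Fischer 344 rats was hybridised to 1-colour Agilent arrays, 1 animal per array. There were 4 old restricted rats of 25 to 28 months, fed on 3 days a week from 6 weeks of age, with about 40% lower intake than old freely fed rats. There were also 4 old freely fed rats of 25 to 28 months and 4 young freely fed rats of 6 months, so no young animal was restricted. Levels are given as log2 signal, with the 75th percentile of the same array subtracted. A value of 0 is the signal of that percentile, and levels of different genes come from different probes and are not compared.

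Depth does not apply to arrays, and the number of animals limits the precision. The 75th percentile lay between 3993 and 4892 intensity units on the 12 arrays, and array-wide levels correlated at 0.981 to 0.997 between arrays. Markers of urothelium (7 of 8 listed) and smooth muscle (10 of 10) were among the genes tested, with mean log2 levels per animal of 3.98 to 4.57 and 3.75 to 5.04. The 3.75 was old freely fed replicate 4, and the next lowest was 4.51 in old freely fed replicate 2. Of the 10 smooth muscle markers, 9 were well above background on every array of old freely fed rats. The arrays of both freely fed groups lay on 1 slide in different rows, and those of restricted rats on a second slide with its own scan. Restriction and slide therefore cannot be told apart. Within the first slide the old freely fed arrays filled row 2 and the young arrays row 1, so age and row cannot be told apart either. The mean log2 level of the negative control spots was -9.81 to -9.54 in restricted rats, -10.5 to -9.97 in old freely fed rats and -9.18 to -8.94 in young rats, and the groups did not overlap. The lowest level of any of the 6 genes was -2.80, above these control levels on every array. The part of row and background in the differences was not tested. Old freely fed replicate 2 stood apart from its group, with a score of 51.9 on principal component 1 while the other 3 animals scored 7.27 to 13.7, and results that rest on it are also given without it.

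The promoters of Srebf2, Insig1 and Abca1 are shown because these genes differed most clearly between groups below. Sequences are from RefSeq, assembly GRCr8, and run 5′ to 3′ on the strand of the gene, with 250 bases before and 50 bases after its start. The windows are chr7:115543057-115543356 (plus strand) for Srebf2, chr4:8057720-8058019 (minus strand) for Insig1 and chr5:72596424-72596723 (minus strand) for Abca1. Capitals mark matches to searched motifs on either strand.
Srebf2: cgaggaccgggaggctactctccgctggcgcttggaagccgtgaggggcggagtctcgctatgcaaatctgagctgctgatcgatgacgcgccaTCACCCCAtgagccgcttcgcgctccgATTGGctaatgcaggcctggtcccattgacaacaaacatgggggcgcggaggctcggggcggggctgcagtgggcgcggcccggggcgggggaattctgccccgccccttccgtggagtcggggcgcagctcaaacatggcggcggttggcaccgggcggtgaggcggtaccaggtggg
Insig1: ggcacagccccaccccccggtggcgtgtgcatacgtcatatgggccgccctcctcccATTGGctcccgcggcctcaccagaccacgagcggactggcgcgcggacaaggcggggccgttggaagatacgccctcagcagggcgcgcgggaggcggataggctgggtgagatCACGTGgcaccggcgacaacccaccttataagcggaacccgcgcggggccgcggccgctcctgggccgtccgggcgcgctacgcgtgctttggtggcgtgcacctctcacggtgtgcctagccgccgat
Abca1: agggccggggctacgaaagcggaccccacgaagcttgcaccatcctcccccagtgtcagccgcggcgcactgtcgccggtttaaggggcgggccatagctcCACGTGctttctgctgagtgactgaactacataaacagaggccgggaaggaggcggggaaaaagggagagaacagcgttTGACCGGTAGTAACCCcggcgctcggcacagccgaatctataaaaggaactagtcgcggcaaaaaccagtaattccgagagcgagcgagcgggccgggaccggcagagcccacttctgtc

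In Srebf2 the first capitals, 156 to 149 bases before the start, match TCACNCCA, a sterol regulatory element. This motif was found in 3.89% of 33469 windows of the same length. The Insig1 and Abca1 windows held no match to it. The second capitals in Srebf2 (129 to 125 bases before the start) and the first in Insig1 (193 to 189) are CCAAT read on the other strand. CCAAT on either strand was found in 37.5% of windows. CACGTG, an E-box, lay 79 to 74 bases before the start of Insig1 and 149 to 144 before that of Abca1, against a share of 6.42% of windows. Genes without a called difference held matches too: the same E-box lay 50 to 45 bases before the start of Scap, and CCAAT on the other strand 61 to 57 bases before that of Insig2.

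The last capitals in Abca1, 70 to 55 bases before the start, lie where an LXR element is a repeat of AGGTCA with 4 bases between its copies. They were found with 3 mismatches allowed, a tolerance chosen after the sequence was seen, and 21.9% of windows match under it. The searched motifs did not overlap each other in these windows. The Nr1h3 window (chr3:97623180-97623479, minus strand) held none of these letter patterns. A match describes letters only.

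Among the SREBP regulators, Srebf2 and Insig1 differed between groups, while no difference of Scap or Insig2 passed the test. Srebf2 was 1.24-fold lower in old freely fed than in young rats and 1.28-fold higher in restricted than in freely fed old rats. Insig1 was 1.46-fold higher in restricted than in freely fed old rats. On the LXR side, Abca1 was 1.61-fold higher in old freely fed than in young rats, and 1.33-fold higher in restricted than in young rats. Nr1h3 was 1.28-fold higher in old freely fed than in young rats, a call that held in 3 of 12 fits that left out 1 animal.

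The comparison of age asked which of these genes differ between old and young freely fed rats. Of the 6 genes, 2 were higher and 1 was lower in old freely fed rats at an adjusted p under 0.05, against 1.63% and 2.1% of all features. For 2 genes, Srebf2 and Abca1, the groups did not overlap, as was so for 15.1% of all features.

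The comparison of diet within old rats asked what restriction changes at the same age. Of the 6 genes, 2 were higher and 0 lower in restricted rats, against 1.62% and 2.02% of all features. For 4 genes (Srebf2, Insig1, Nr1h3 and Abca1) the groups did not overlap, against 14.7% of features.

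The third comparison set restricted old rats against young rats. Here 2 of the 6 genes were higher and 0 lower, against 3.19% and 5.99% of all features. For 1 gene, Abca1, the groups did not overlap, against 18% of features. The 3 comparisons share animals, since each group enters 2 of them, so their results are not independent of each other.

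**Figure D1:**
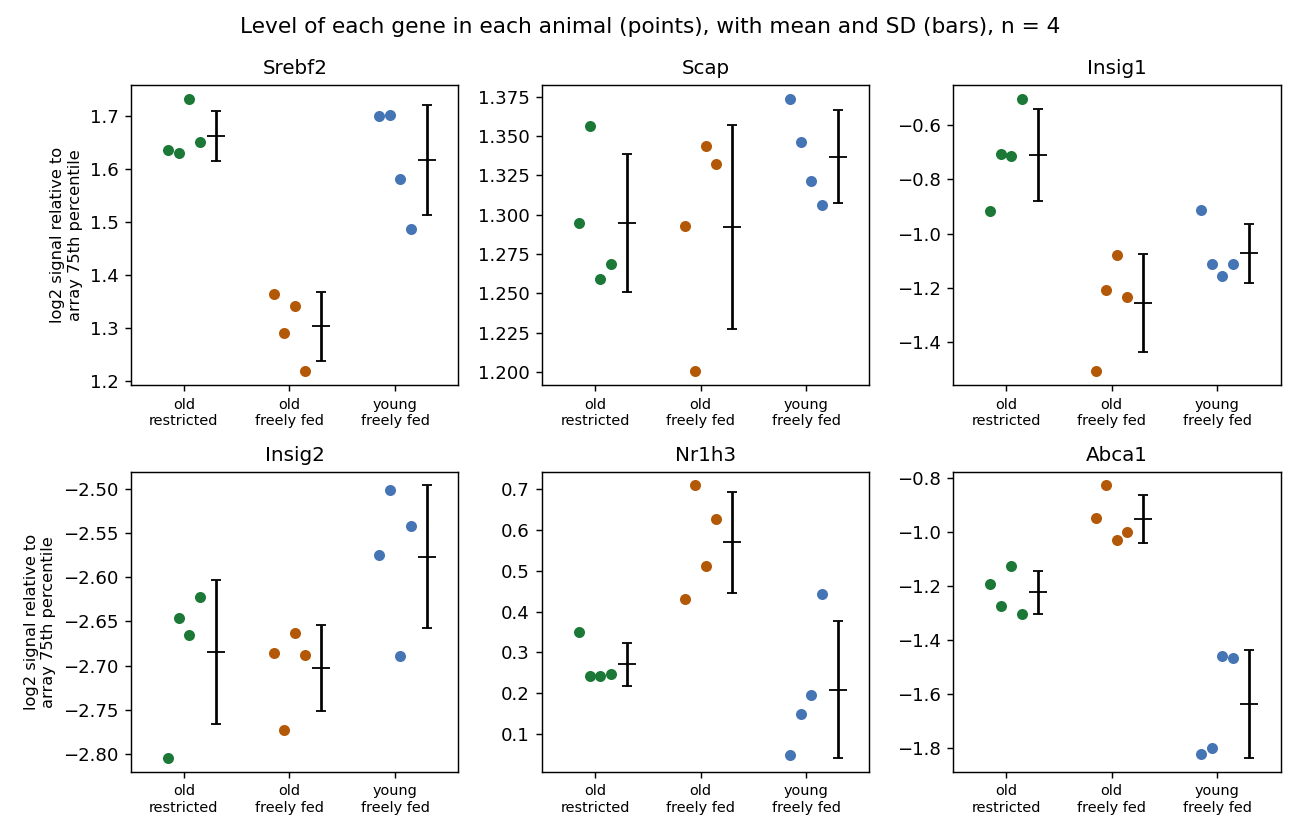
Log2 signal relative to the array's 75th percentile (vertical axis, a separate range for each gene) of Srebf2, Scap, Insig1, Insig2, Nr1h3 and Abca1. Each point is 1 animal and bars give the mean and SD of 4 animals; Srebf2 is low in old freely fed rats, Insig1 is high in restricted rats, and Abca1 and Nr1h3 are high in old freely fed rats.

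Srebf2 encodes SREBP-2, the transcription factor that mainly drives sterol synthesis and uptake genes. Its log2 level was 1.63, 1.63, 1.73 and 1.65 in the restricted rats, 1.36, 1.29, 1.34 and 1.22 in the old freely fed rats, and 1.70, 1.70, 1.58 and 1.49 in the young rats. All 4 old freely fed rats were below all 8 other animals, and restricted and young rats overlapped.

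Against young rats, the difference in old freely fed rats was -0.31 (log2, SE 0.054, adjusted p = 0.0187, limma). The change in restricted over freely fed old rats was 0.36 (SE 0.054, adjusted p = 0.00668). Restricted and young rats differed by 0.05, with a 95% interval of -0.07 to 0.16 (adjusted p = 0.637). Without old freely fed replicate 2 these differences were -0.31 (adjusted p = 0.0377) and 0.36 (adjusted p = 0.0167). Without young replicate 2 the difference of age was -0.29 and missed the threshold (adjusted p = 0.0568).

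Insig1 encodes an anchor that holds SCAP in the endoplasmic reticulum, and it is itself a known SREBP target. Its log2 level was -0.92, -0.71, -0.71 and -0.50 in restricted rats, -1.51, -1.21, -1.08 and -1.23 in old freely fed rats, and -0.91, -1.11, -1.16 and -1.11 in young rats. All 4 restricted rats were above all 4 old freely fed rats. Restricted replicate 1 was just below the highest young rat, and the other 3 restricted rats were above every young rat.

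Insig1 rose by 0.55 in restricted over freely fed old rats (log2, SE 0.102, adjusted p = 0.0167). Without restricted replicate 2 the difference was 0.54 and just missed the threshold (adjusted p = 0.0503), and without old freely fed replicate 2 it was 0.56 (adjusted p = 0.0315). Against young rats the rise in restricted rats was 0.36, 1.29-fold (adjusted p = 0.0473). This call was lost under 4 other ways of processing and in 8 of 12 fits that left out 1 animal. Old freely fed and young rats differed by -0.18, with a 95% interval of -0.41 to 0.04 (adjusted p = 0.29).

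Scap encodes the sterol sensor and escort of SREBP. Its log2 level lay between 1.26 and 1.36 in restricted rats, between 1.20 and 1.34 in old freely fed rats, and between 1.31 and 1.37 in young rats. Its spread within groups, an SD of 0.048, was smaller than that of all but 3.45% of features. The groups overlapped in every comparison, and the 95% intervals of the 3 differences lay between -0.13 and 0.09. The adjusted p was 0.98 between the old groups, 0.519 for old freely fed against young rats and 0.546 for restricted against young rats.

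Insig2 encodes the second INSIG anchor, which in mouse liver is known for a transcript that insulin represses. Its log2 level ranged over -2.80 to -2.62 in restricted rats, -2.77 to -2.66 in old freely fed rats and -2.69 to -2.50 in young rats. The groups overlapped in all 3 comparisons. The difference between restricted and freely fed old rats was 0.02, with a 95% interval of -0.11 to 0.15 (adjusted p = 0.894). Against young rats it was -0.11 in restricted rats (adjusted p = 0.27) and -0.13 in old freely fed rats (adjusted p = 0.211).

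**Figure D2:**
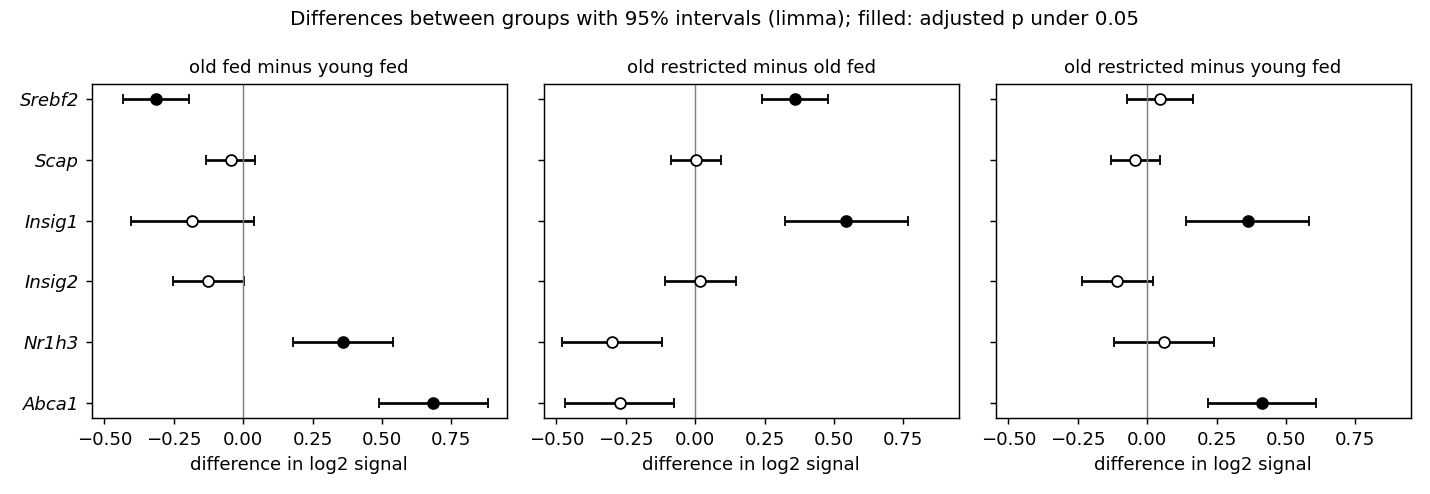
Differences in log2 signal (horizontal axis) with 95% intervals from the model over all features, for each gene in the 3 comparisons. Filled points have an adjusted p under 0.05: Srebf2, Nr1h3 and Abca1 for age, Srebf2 and Insig1 between the old groups, and Insig1 and Abca1 for restricted against young rats.

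Nr1h3 encodes LXR alpha, a nuclear receptor for oxysterols. Its log2 level was 0.35, 0.24, 0.24 and 0.25 in restricted rats, 0.43, 0.71, 0.51 and 0.63 in old freely fed rats, and 0.05, 0.15, 0.20 and 0.44 in young rats. All 4 old freely fed rats were above all 4 restricted rats, and the lowest of them was just below the highest young rat.

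The difference of 0.36 between old freely fed and young rats passed the test (log2, SE 0.082, adjusted p = 0.0391). It passed in 3 of 12 fits that left out 1 animal, and without old freely fed replicate 2 it was 0.31 (adjusted p = 0.0905). The difference of restricted from freely fed old rats was -0.30 and did not pass (adjusted p = 0.0691; without old freely fed replicate 2, -0.25 and 0.159). It passed without young replicate 4 (-0.30, adjusted p = 0.0299) and with normexp background correction (-0.32, adjusted p = 0.0432). Restricted and young rats differed by 0.06, with a 95% interval of -0.12 to 0.24 (adjusted p = 0.673).

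Abca1 encodes the pump that moves cellular cholesterol onto lipid-poor apolipoprotein, and it is a textbook LXR target. Its log2 level was -1.19, -1.27, -1.13 and -1.30 in restricted rats, -0.95, -0.83, -1.03 and -1.0 in old freely fed rats, and -1.82, -1.80, -1.46 and -1.47 in young rats. The 3 groups did not overlap, with young rats lowest and old freely fed rats highest.

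Abca1 rose by 0.69 in old freely fed over young rats (log2, SE 0.09, adjusted p = 0.00687). Without old freely fed replicate 2 this was 0.64 (adjusted p = 0.0164), and it passed in all 12 fits that left out 1 animal. In restricted over young rats it rose by 0.41, 1.33-fold (adjusted p = 0.0188), except that without restricted replicate 3 this was 0.38 (adjusted p = 0.0581). The difference of restricted from freely fed old rats was -0.27 and did not pass (95% interval -0.47 to -0.08 before adjustment, adjusted p = 0.118).

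Some markers of leukocytes differed between old freely fed and young rats, the only comparison in which Abca1 and Nr1h3 both passed the test. Between the old groups 2 T cell markers passed, while neither Abca1 nor Nr1h3 did. Of 10 macrophage markers, all tested and well above background on every array, 2 were higher and 0 lower in old freely fed than in young rats: Gpnmb by 0.63 (adjusted p = 0.025) and Laptm5 by 0.72 (adjusted p = 0.0321). Without young replicate 1, 2 or 3, 0 of 10 passed for age. The mean log2 level of all 10 per animal was -0.16 to 0.09 in restricted rats, -0.03 to 0.81 in old freely fed rats and -0.20 to -0.06 in young rats, with the highest value in old freely fed replicate 2. The ranges of the 2 old groups overlapped. None of the 10 passed between the old groups or between restricted and young rats. Between the old groups the median was -0.33, and 6 had a p under 0.05 before adjustment (limma), all lower in restricted rats. For age the median was 0.52, with 6 higher and 0 lower at a p under 0.05 before adjustment. In restricted against young rats the median was 0.09, with 1 higher and 1 lower before adjustment.

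Of 8 T cell markers, 4 were higher and 0 lower in old freely fed than in young rats, among them Cd2 by 1.21 and Cd6 by 1.29 (adjusted p = 0.00687 for each). In restricted against freely fed old rats 2 were lower and 0 higher, Cd3d at -0.71 and Cd6 at -0.77, and 0 passed without restricted replicate 2 or 4. In restricted against young rats 1 was higher and 0 lower, Cd2 by 0.59 (adjusted p = 0.0379), and all 8 differences were positive. The mean log2 level of the 8 markers per animal was -3.75 to -3.31 in restricted rats, -2.99 to -2.84 in old freely fed rats and -4.17 to -3.56 in young rats, so old freely fed rats lay above both other groups. One of these markers, Cd5, was well above background in 2 of 4 young rats. It was kept through the old groups, where it is higher, and it enters this mean. The part of leukocytes in the values of Abca1 and Nr1h3 was not tested. In whole bladder RNA, more cells of a type and more RNA per cell cannot be told apart.

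Some fat cell markers differed with diet and with age. Of 10 adipocyte markers listed 7 were tested, and 2 were lower and 0 higher in restricted than in freely fed old rats. They were Lpl at -1.21 (adjusted p = 0.0019) and Cd36 at -0.44 (adjusted p = 0.0358), and 1 passed without old freely fed replicate 2. Before adjustment 6 of the 7 had a p under 0.05 (limma), all lower in restricted rats, and the median was -0.44. In old freely fed against young rats 1 was higher and 0 lower, Lpl by 0.50 (adjusted p = 0.0404), 6 of 7 differences were positive with a median of 0.25, and 0 passed without old freely fed replicate 2. In restricted against young rats 1 was lower and 0 higher, Lpl at -0.71 (adjusted p = 0.00573). The mean log2 level of the 7 markers per animal was -2.35 to -0.87 in restricted rats, -0.62 to -0.33 in old freely fed rats and -1.17 to -0.67 in young rats. Restricted replicates 2 and 3 were at -2.35 and -2.10, and replicates 1 and 4 at -1.10 and -0.87. Cidec, which enters this mean, was well above background in 2 of 4 restricted rats and was kept through the freely fed groups. Adipoq was well above background in all 12 animals. Old freely fed rats lay above both other groups. The part of fat cells in the differences of the 6 genes was not tested. Smooth muscle markers differed with age, with 3 of 10 lower in old freely fed and 4 of 10 lower in restricted rats against young rats, and 0 between the old groups. Without old freely fed replicate 2, 0 of 10 passed in old freely fed against young rats, and with quantile scaling 0 and 1 passed in these comparisons. Of 7 urothelium markers tested, 1 was higher and 0 lower in each old group against young rats, and 0 passed between the old groups. In old freely fed against young rats 1 difference was positive and 6 were negative, with a median of -0.10. Before adjustment, 1 higher and 2 lower had a p under 0.05 there (limma). Between the old groups all 7 were higher in restricted rats, with a median of 0.15, and 3 had a p under 0.05 before adjustment. Of 7 fibroblast markers 1 was lower, and both tested genes of 6 listed for prostate and seminal vesicle were lower, in each old group against young rats, and 0 passed between the old groups. Andpro, 1 of that pair, was kept through the young rats, since it was well above background in 0 of 4 restricted and 1 of 4 old freely fed rats.

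**Figure D3:**
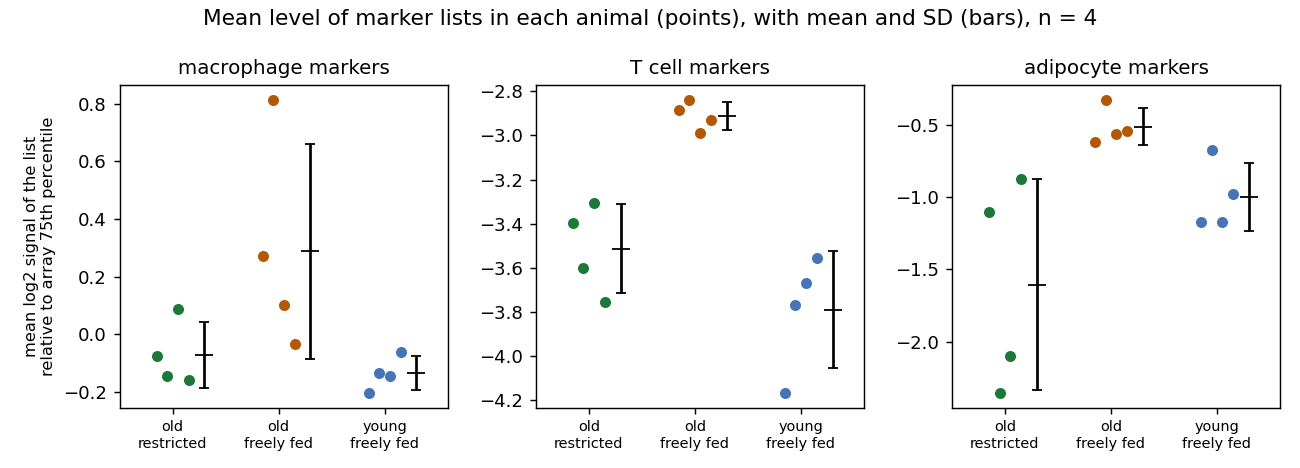
Mean log2 signal relative to the array's 75th percentile (vertical axis, a separate range per list) of the macrophage, T cell and adipocyte markers. Each point is 1 animal and bars give the mean and SD of 4 animals; T cell markers are highest in the 4 old freely fed rats (-2.99 to -2.84), and adipocyte markers reach -2.35 in restricted rats.

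The machinery around SCAP was followed with a list of 19 further genes of SREBP processing and turnover, of which 17 were tested. The list also held Mid1ip1, described below, so its counts are not of SCAP machinery alone. In restricted against freely fed old rats 2 were higher and 0 lower, with a median difference of 0.08 (0.02 over all features tested). Without old freely fed replicate 2, neither passed. These were Mid1ip1, a partner of acetyl-CoA carboxylase that responds to lipid supply, at 0.32 (adjusted p = 0.0212), and Sec23a at 0.25 (adjusted p = 0.0296). Sec23a is a COPII coat subunit that carries SCAP cargo out of the endoplasmic reticulum. Neither Golgi protease gene passed: Mbtps1 (site-1 protease) differed by 0.13 (adjusted p = 0.121) and Mbtps2 (site-2 protease) by 0.08 (adjusted p = 0.744).

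In old freely fed against young rats 1 of these 17 genes was higher and 0 lower, with a median of -0.04 (-0.05 over all features). It was Erlin1, an endoplasmic reticulum protein that takes part in degrading sterol regulators, at 0.16 (adjusted p = 0.0483), and it did not pass without old freely fed replicate 2. In restricted against young rats 3 were higher and 0 lower, with a median of 0.06 (-0.01 over all features). They were Erlin1 at 0.26 (adjusted p = 0.00349), Spring1, which helps site-1 protease mature, at 0.30 (adjusted p = 0.026), and Mid1ip1 at 0.23 (adjusted p = 0.0422).

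Genes of sterol and fatty acid synthesis are known targets of SREBP proteins. Of 21 sterol synthesis genes, all tested, 13 were higher and 0 lower in restricted than in freely fed old rats, with a median of 0.44. Without old freely fed replicate 2 the count was 7, and over the fits that left out 1 animal it was 5 to 13 (5 without restricted replicate 4), with 0 lower in each. Fdps, farnesyl diphosphate synthase, was higher by 0.74 (adjusted p = 0.00353), Mvd, which decarboxylates mevalonate diphosphate, by 0.61 (adjusted p = 0.00707), and Idi1, isopentenyl diphosphate isomerase, by 0.71 (adjusted p = 0.0156). Dhcr7, the last step to cholesterol, was higher by 0.49 (adjusted p = 0.0106).

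In old freely fed against young rats 0 of the 21 sterol genes passed the test (limma) in either direction. Before adjustment, 7 had a p under 0.05 and all were lower in old freely fed rats, and the median was -0.17. In restricted against young rats 5 were higher and 0 lower, with a median of 0.27, Dhcr7 among them at 0.52 (adjusted p = 0.00517). These lists were chosen with results of these animals known, so the counts are not independent evidence.

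Of 16 fatty acid synthesis genes 14 were tested, and 3 were higher and 0 lower in restricted than in freely fed old rats, with a median of 0.29. They were the desaturases Scd2 at 0.73 (adjusted p = 0.00415) and Fads1 at 0.48 (adjusted p = 0.00407), and Slc25a1, which exports mitochondrial citrate, at 0.27 (adjusted p = 0.0137). Fasn, fatty acid synthase, differed by 0.43 and did not pass (adjusted p = 0.0513). The same 3 genes were higher in restricted than in young rats (median 0.17, 0 lower), with Scd2 at 0.79 (adjusted p = 0.00192), Fads1 at 0.25 and Slc25a1 at 0.20. In old freely fed against young rats 0 of the 14 passed (limma), while 2, both lower, had a p under 0.05 before adjustment, and the median was -0.15. Per animal, the mean log2 level of the 14 genes was -0.78 to -0.17 in restricted and -1.15 to -0.82 in old freely fed rats. Young rats lay at -0.89 to -0.67, overlapping both old groups. The -0.17 was restricted replicate 4, with the other restricted rats at -0.78 to -0.65. The -1.15 was old freely fed replicate 2.

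**Figure D4:**
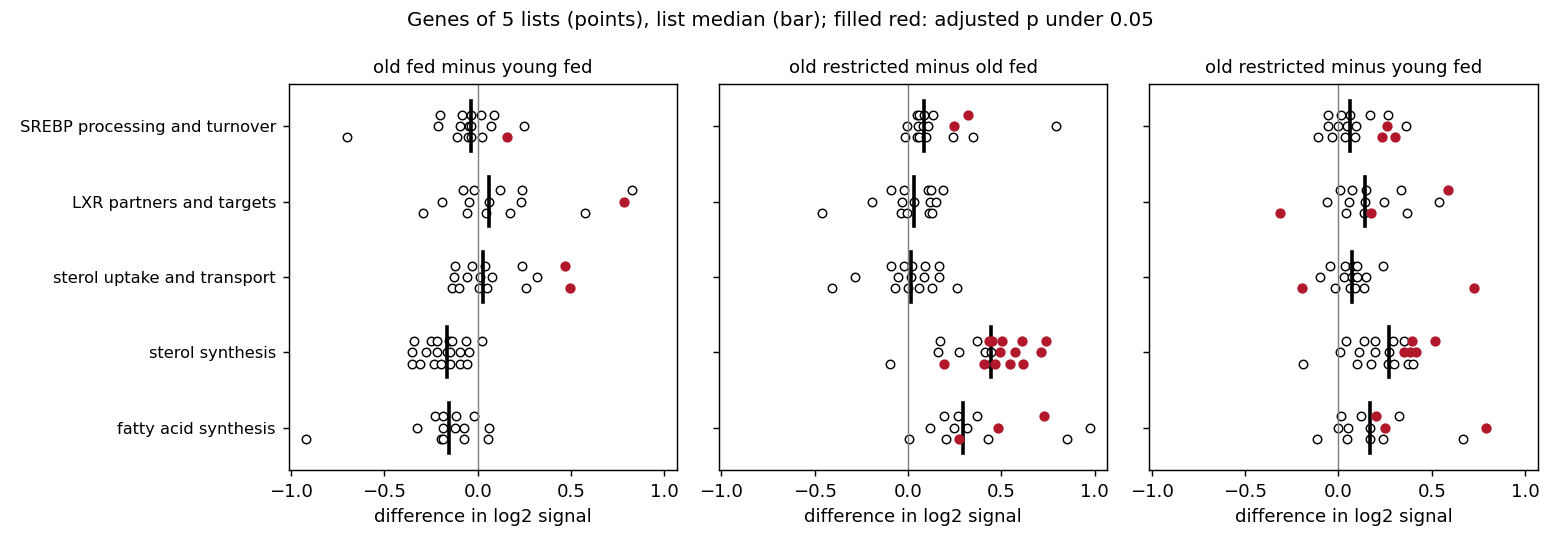
Differences in log2 signal (horizontal axis) of the genes of 5 lists in the 3 comparisons; points are genes, red points have an adjusted p under 0.05 and bars give list medians. Sterol synthesis genes lie to the right in restricted against freely fed old rats (median 0.44, 13 of 21 called).

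Around LXR, 15 of 19 further partners and targets were tested. In old freely fed against young rats 1 was higher and 0 lower, with a median of 0.06. It was Abcg5, a sterol export half-transporter, at 0.78, 1.72-fold (adjusted p = 0.0141). Abcg1, which exports cholesterol to HDL and is a textbook LXR target, differed by 0.58 and did not pass (adjusted p = 0.0632).

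In restricted against freely fed old rats 0 of the 15 LXR genes passed (limma), while 3, each higher in restricted rats, had a p under 0.05 before adjustment, and the median was 0.03. Nr1h2, which encodes LXR beta, differed by 0.03 (adjusted p = 0.751) there and by -0.02 (adjusted p = 0.827) between old freely fed and young rats. In restricted against young rats 2 were higher and 1 lower, with a median of 0.14. Abcg5 was higher by 0.59 (adjusted p = 0.018), Lpcat3, which remodels phospholipids, was higher by 0.18 (adjusted p = 0.0239), and Abcg4, a relative of Abcg1, was lower at -0.31 (adjusted p = 0.0437).

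Of 18 genes of sterol uptake and transport 16 were tested. In old freely fed against young rats 2 were higher and 0 lower, with a median of 0.03. They were Gramd1b, which carries cholesterol from the plasma membrane to the endoplasmic reticulum, at 0.50 (adjusted p = 0.0399), and Soat1, which makes cholesteryl esters, at 0.47 (adjusted p = 0.043). Soat1 was well above background in 3 of 4 young rats and was kept through the old groups, where it is higher. Of Gramd1b and Soat1, neither passed without old freely fed replicate 2 or with normexp background correction, and the count was 0 to 2 over the fits that left out 1 animal. Between the old groups 0 passed (limma), the median was 0.02, and p before adjustment was under 0.05 for 5 genes (3 higher, 2 lower in restricted rats).

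In restricted against young rats 1 uptake and transport gene was higher and 1 lower, with a median of 0.07. Soat1, which was well above background in 3 of 4 young rats, was higher by 0.73 (adjusted p = 0.00417), and Snx17, which recycles receptors of the LDL receptor family from endosomes, was lower at -0.20 (adjusted p = 0.0302). Npc1, which moves cholesterol out of lysosomes, differed by 0.06 there and by 0.01 between the old groups (adjusted p = 0.448 and 0.902).

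The genes with levels most like each regulator over the 12 arrays were found by Pearson correlation, among all tested genes with a symbol. For Srebf2 they were Rheb (0.954), Tmem97 (0.930) and S100a1 (0.928), and with group means removed the correlations were 0.745, 0.816 and 0.648. For Insig1 they were Rai2 (0.898), the sterol synthesis enzyme gene Msmo1 (0.890) and Hoxd13 (0.885), and with group means removed 0.669, 0.621 and 0.495.

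For Abca1 they were Ptpn22 (0.971), Il21r (0.957) and Cxcr3 (0.956), and with group means removed 0.877, 0.708 and 0.696. These 3 genes are known from lymphocytes. For Nr1h3 they were Inhbb (0.929), Tmem179b (0.921) and Ccnb1ip1 (0.916), with 0.781, 0.887 and 0.852 once group means were removed.

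Scap was most like Tkfc (0.903), Entrep3 (0.899) and Akr7a3 (0.881), and Insig2 most like Crip2 (0.926), Filip1 (0.906) and Golga3 (0.893). All these correlations describe 12 arrays that share the groups, the slides and the scaling, and carry no test.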

How the data were processed

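Bladder RNA of 12 rats was labelled with Cy3 and measured on 1-colour Agilent arrays, per the labels' protocols. Deposited spot intensities had been background-subtracted and detrended within each array by Agilent Feature Extraction 10.7, per the file headers and the submitters' processing notes, with no scaling between arrays. The deposited series table of intensity values equalled the scanner values in 100% of spots (relative tolerance 1e-06), so it was linear and uncentred, and it was not used further. The headers name genome build rn4; no coordinates were taken from it.

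The log2 processed intensity minus each array's 75th percentile over 58717 non-control spots was used. Spots marked as outliers were dropped unless a probe had no other (91 averages), no spot was saturated, and a share above 0.5 of a probe's spots had to be well above background for the probe to count as such. Accessions named 17998 of 30367 probes (59.3%) through a RefSeq GRCr8 table. A probe was kept where some group had it well above background in all 4 animals (23089 probes), and the brightest probe stood for a gene, which left 20425 features, 12036 of them with a symbol.

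Linear models (R 4.3, limma 3.58, eBayes with a brightness trend, 9 residual and 2.72 prior degrees of freedom) were fitted to all 12 arrays, two-sided, with Benjamini-Hochberg adjustment at 0.05 over all features in each comparison. Calls at that threshold numbered 760 for age, 744 between the old groups and 1874 for restricted against young rats. The comparison of age was tested on simulated data over 20425 features. With 50 changes planted at each size, it recovered 70% of 1.5-fold changes, 86% of 2-fold, 98% of 3-fold and 100% of 4-fold ones. It made 10 false calls. No change smaller than 1.5-fold was planted, so recovery of smaller differences, such as that of Srebf2, was not measured.

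The members, the 5 pathway lists and the marker lists were chosen with earlier results of these data known. Named genes were all members, up to 4 genes per list and comparison with the smallest adjusted p, 3 genes most like each member by correlation, and, chosen by known role after their values were seen, Mbtps2, Nr1h2, Npc1, Fasn and Cidec. Counts include some genes taken by the rule whose values are not reported here. The labels do not say that replicates came from separate litters. Samples with the same replicate number in 2 groups correlated at -0.19 to 0.095 in their deviations from the group means, so the numbers were not treated as pairs. Alternatives were quantile scaling, median centring, normexp (offset 50, on median signal and background), other filters on dim probes, no brightness trend, all probes, 2 groups alone, a replicate block, and leaving out each animal. List counts under the alternatives were added after seeing the data.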

Additional observations from a re-analysis of the deposited data

Results flagged for a closer look

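Within the 4 old restricted rats, Nr1h3 in replicate 1 stood apart at a log2 level of 0.35, while the other 3 lay between 0.24 and 0.25. Its gap to the nearest animal was 0.957 of the range of the group and passed Dixon's 95% criterion for 4 samples. Chance marks about 1 in 20 groups in this way, and all 6 genes were examined in each of 3 groups. The value of 0.35 was still below every old freely fed rat (0.43 to 0.71) and within the range of the young rats (0.05 to 0.44).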

How the results depend on the processing

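Abca1 and Srebf2 kept the direction of their called differences under all alternatives, and calls changed for Srebf2 by age, Nr1h3, Insig1 and, without restricted replicate 3, Abca1 in restricted against young rats. With 2 groups alone the called genes numbered 94 for age (760 in the model of 3 groups) and 478 between the old groups (744), 1 of the 6 members was called for age, Srebf2 by age was -0.31 (adjusted p = 0.0654), and Nr1h3 0.36 (0.0989). Without the brightness trend 440 genes were called for age and Nr1h3 by age was 0.36 (0.0545). With the replicate block 498 were called for age, Nr1h3 by age was 0.36 (0.0536), and Insig1 in restricted against young rats was 0.36 (0.0683). That Insig1 call was also lost with median centring (0.39, 0.0568), normexp (0.34, 0.0647) and no trend (0.36, 0.0585), each of which, like the block, left 1 member called. With no filter on dim probes, where 26903 features were tested, 3568 genes were called for age and 3259 for restricted against young rats (1874). Nr1h3 passed between the old groups with normexp, at -0.32 (0.0432), and without young replicate 4, at -0.30 (0.0299). Scap, near 0 throughout, was 0.00095 for age and -0.016 between the old groups under quantile scaling, and -0.0012 between the old groups under median centring. Scaling moved the split of called genes: for age 332 higher and 428 lower became 364 and 152 (quantile) and 370 and 145 (median); for restricted against young rats 651 and 1223 became 827 and 880 (quantile); between the old groups 331 and 413 became 568 and 318 (normexp). The causes were not tested.

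Leaving out 1 animal gave 121 to 927 called genes for age (lowest without young replicate 2), 268 to 848 between the old groups (lowest without restricted replicate 2) and 737 to 2089 for restricted against young rats (lowest without restricted replicate 3). Members called were 1 to 3, 1 to 3 and 0 to 2. For age Srebf2 ranged from -0.36 to -0.29 and Nr1h3 from 0.31 to 0.44. Between the old groups Insig1 ranged from 0.46 to 0.61, Nr1h3 from -0.35 to -0.25, Scap from -0.028 to 0.0197 and Insig2 from -0.0058 to 0.0578, both lowest without old freely fed replicate 2. Scap was -0.0179 without restricted replicate 2, and Insig2 -0.003 without restricted replicate 4. For restricted against young rats Insig1 ranged from 0.29 to 0.43 and Abca1 from 0.35 to 0.47. Called sterol synthesis genes in restricted against young rats numbered 2 to 7 (2 without restricted replicate 2, 3 or 4), fatty acid genes 1 to 3 (1 without restricted replicate 2 or 3 or young replicate 4), SREBP processing genes 1 to 3 (1 without restricted replicate 2, 3 or 4) and higher LXR genes 0 to 3 (0 without restricted replicate 3). Higher macrophage markers for age numbered 0 to 3 (0 without young replicate 1, 2 or 3), and lower T cell markers between the old groups 0 to 5 (0 without restricted replicate 2 or 4). The probes of the 6 genes were well above background on all 12 arrays, while some listed genes, among them Soat1, Cd5, Cidec and Andpro, were not in some animals.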

Other observations

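Deviations of each animal from its group mean were compared for the 15 pairs of the 6 genes. Srebf2 and Nr1h3 had a Pearson r of -0.81 and a Spearman rho of -0.78 over 12 animals (exact permutation within groups, two-sided, p = 0.0112 and 0.0302, adjusted over 15 pairs 0.0841 and 0.198). Without the 2 animals farthest from the median of Srebf2, r was -0.71. Scap and Abca1 had r = -0.65 and rho = -0.62 (exact permutation p = 0.00767 and 0.026, adjusted 0.0841 and 0.198), and r = -0.66 without 2 animals. None of the 15 pairs passed the adjustment. Each animal's genes share 1 array and its scaling, and under quantile scaling these r values were -0.82 and -0.48.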
